A study of Mus musculus with 87 samples.

Results

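Hearts of 2 boundary deletion lines were set against each other. The hearts were chosen by their labels, as the 2 homozygous hearts of line B6 (A6 and A8) and the 2 homozygous hearts of line B7 (A2 and A4), 4 of the 64 RNA-seq samples among 87 samples in all. All were taken at E11.5 from FVB embryos, in which CRISPR/Cas9 had removed 1 boundary between topologically associating domains (TADs) from both copies of the genome. The B6 hearts lack the boundary between Twist1 and Ahr on chromosome 12 and keep the B7 boundary. The B7 hearts lack a boundary near Neurog2 on chromosome 3 and keep the B6 boundary. Each line goes back to 1 founder, and no wild-type heart of either line was analysed here, so that in heart the deletion and the line cannot be told apart. For comparison there were 16 hearts of the B2, B3 and B5 lines, homozygous and wild-type, and 8 faces of the B6 and B7 lines, 2 homozygous and 2 wild-type for each. The labels do not say which hearts and faces shared an embryo or a litter, so p-values measure the spread between these samples, which may be partly technical.

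TADs are stretches of chromatin whose parts touch one another more often than they touch their neighbours, and their boundaries are bound by CTCF and cohesin. A boundary keeps the enhancers of one domain away from the genes of the next, and losing it can let a gene respond to enhancers of the adjoining domain. At E11.5 the mouse heart has looped and beats, its chambers are growing, cushions are forming between atrium and ventricle, and primitive red cells from the yolk sac fill its lumen.

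The guides are given because they fix where each line differs by design. They are printed 5′ to 3′ with the protospacer adjacent motif in capitals, and each matched the named chromosome of GRCm38 at 1 place.
B6, 5′ side, guide 1: gggcactgggtttcttctatCGG
B6, 5′ side, guide 3: tattgcctcaatggaataggTGG
B6, 3′ side, guide 2: agtaagcaatggttttgcatTGG
B6, 3′ side, guide 4: gtctctgacacttgtttgctTGG
B7, 5′ side, guide 1: tcactacatcgagtagaaccCGG
B7, 5′ side, guide 3: gacatcagttgtagaaaacaCGG
B7, 3′ side, guide 2: atctcaagttaagggtctgtGGG
B7, 3′ side, guide 4: catctcaagttaagggtctgTGG
Between the outermost predicted cut sites lie 13.2 kb for B6 (chr12:35181344-35194549) and 34.3 kb for B7 (chr3:127970232-128004518). Neither interval overlaps a gene of GENCODE M21. The nearest annotated genes with counts are Snx13, 33.9 kb from the B6 interval, and Fam241a, 73.9 kb from the B7 interval.

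The 4 libraries held 19.7 M to 21.8 M (mega) counts over genes. Cardiac muscle genes were high in all of them. Tnnt2, cardiac troponin T, ran from 2005 to 3634 TPM, the authors' measure scaled to gene length and depth, and Nkx2-5, an early cardiac transcription factor, from 138 to 214 TPM. Xist and the Y-linked genes read A6 as male and A8, A2 and A4 as female, so a comparison without A6 is one between female hearts. Mitochondrially encoded transcripts took 3.65% and 2.66% of counts in A6 and A8 and 1.73% and 2.49% in A2 and A4. In 2 of the 16 other hearts, 1 of B5 and 1 of B2, at least 100 counts each of Xist and of Y-linked genes were found.

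Over the whole transcriptome the hearts of the lines differed in many genes, most of them by less than 2-fold. Of 14535 genes tested, 746 (5.13%) were called with edgeR's quasi-likelihood test at an adjusted p under 0.05, 345 (2.37%) higher in B6 and 401 (2.76%) lower. The median absolute log2 difference of the called genes was 0.64, and 40 of the higher and 136 of the lower genes differed at least 2-fold. The size of the list depended on which hearts carried the estimate of error. Without A4 the counts were 16 higher and 19 lower, and without A6 they were 160 and 250. When all 20 hearts shared 1 estimate of the spread, 12 genes were called higher and 35 lower (0.292% of 16120), and these 47 were among the 746 with the same sign. Every one of the 746 kept its sign in that fit, and 744 kept it with each heart left out in turn. Neither is a check of the direction. The fit of 20 takes each difference from the same 4 hearts, and the groups did not overlap for any of the 746, which nearly fixes the sign. Its spread includes the homozygous B5 hearts A21 and A22. Among pairs of hearts of the same line and genotype, they had the lowest Spearman correlation, 0.9354, and the next lowest was 0.9748. A21 holds counts of both Xist and Y-linked genes. How far this pair widened the spread was not tested. A call lost in the fit of 20 therefore cannot be read as the lack of a difference between B6 and B7. Groups that do not overlap were common, at 57.2% of tested genes, so a lack of overlap alone says little. Set against the 16 other hearts, both B6 hearts lay outside their range for 105 of the higher and 38 of the lower genes, and both B7 hearts for 32 and 95. These counts cover called genes only. The share over all tested genes was not computed, so they cannot be read as unusual.

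The genes beside each deletion were taken as those within 1 Mb of it, and the positions of the domains were not used. Of 15 annotated genes within 1 Mb of the B6 deletion, 6 had enough counts to test, and 1 of them, Hdac9, was called (16.7% beside 5.13% of all genes). Hdac9, a class IIa histone deacetylase that restrains MEF2 targets in muscle, lies at chr12:34047580-34917095 on the minus strand, 264 kb from the interval. In CPM, which are counts scaled to library size by TMM, the levels were 37.6 in A6 and 33 in A8 against 25 in A2 and 24.2 in A4. Both B6 hearts were above both B7 hearts, a 1.4-fold difference (log2 0.48, 95% interval 0.24 to 0.73, adjusted p = 0.046). The 16 other hearts spanned 10.4 to 33.8 CPM with a median of 17.2. B2 hearts ran from 10.4 to 18.9 CPM, B3 hearts from 20.05 to 33.8 and B5 hearts from 15.1 to 27.8. So the B7 level was above all B2 hearts and within the ranges of B3 and B5. The call was lost in the fit of all 20 hearts (adjusted p = 0.51) and with A2, A4 or A6 left out (0.066, 0.15 and 0.22).

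Snx13, a sorting nexin and the closest of the expressed genes, stood at 43.2 and 43 CPM in B6 and 37.6 and 35.1 CPM in B7. Its log2 difference of 0.21 did not pass (adjusted p = 0.19). Ahr, the ligand-activated aryl hydrocarbon receptor on the far side of the boundary, was low in every heart, at 5.07 and 6.03 CPM in B6 and 4.58 and 5.26 CPM in B7 (log2 0.13, adjusted p = 0.72). None of the 10 tested members of a list of Ahr partners and targets was called. Tspan13, Bzw2 and Ankmy2 had log2 differences of 0.14, -0.00054 and 0.030, and none was called. Bzw2 and Ankmy2 overlap at their ends, and the strand setting of the counting is not given in the sources used here, so their reads may be partly shared.

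Twist1, a basic helix-loop-helix factor of cushion and cranial mesenchyme, lies more than 1 Mb from the interval, at chr12:33957671-33959829. It was measured at 66.6 and 69.4 CPM in B6 and 49.4 and 56.4 CPM in B7. The groups did not overlap, but the log2 difference of 0.32 missed the threshold (adjusted p = 0.092). The other hearts ran from 39.6 to 209 CPM, the highest in B5, with a median of 77.5. Meox2 and Sostdc1, which the study also names for B6, were below 0.26 CPM in all 4 hearts and could not be tested. Other hearts reached 6.08 CPM for Meox2 and 13.4 CPM for Sostdc1, both in B5, but their medians were 0.39 and 0.81 CPM.

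**Figure D1:**
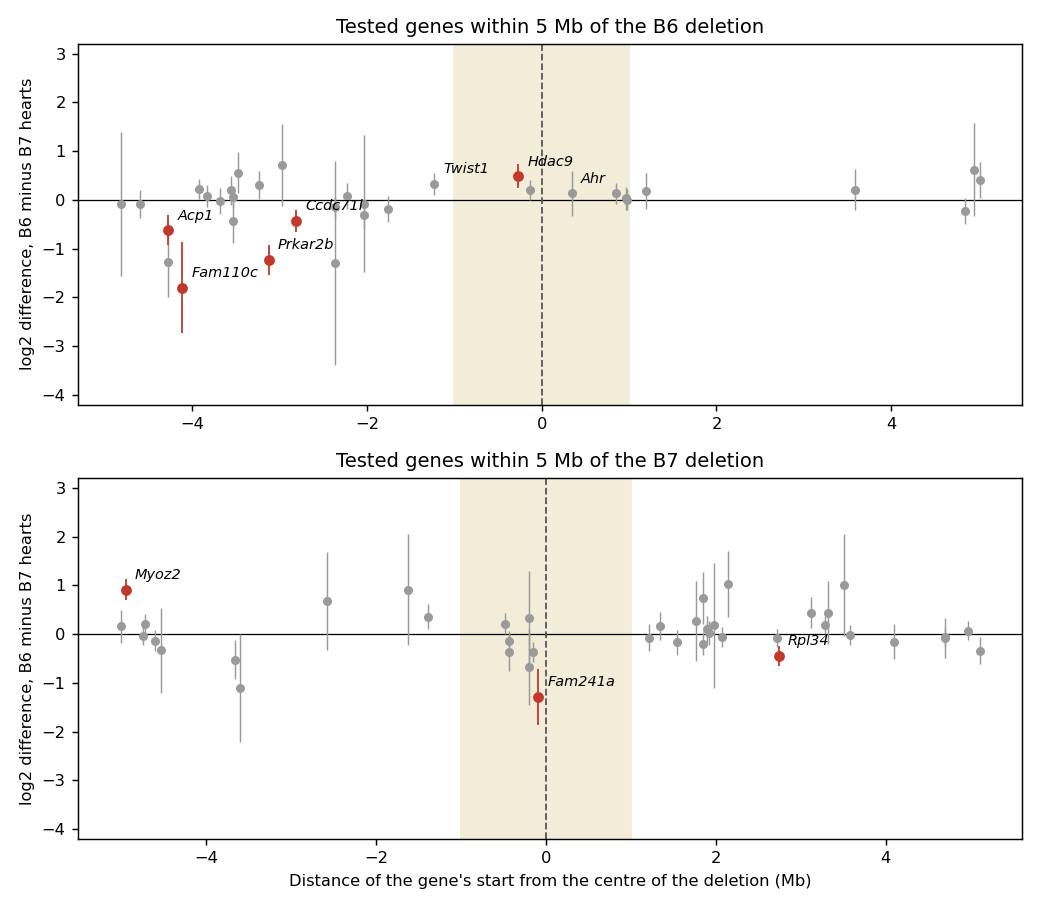
Log2 difference between B6 and B7 hearts (vertical axis, bars give 95% intervals) for tested genes within 5 Mb of each deletion, plotted by the distance of the gene's start from the deletion's centre in Mb. Red points were called, the shaded band marks 1 Mb on either side, and in that band only Hdac9 (0.48) and Fam241a (-1.29) are red.

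Within 5 Mb of the B6 deletion 5 of 34 tested genes were called (14.7% beside 5.13% of all genes), Hdac9 as higher and Acp1, Fam110c, Ccdc71l and Prkar2b as lower (log2 -0.62, -1.81, -0.43 and -1.23), and Prkar2b had the smallest p. It encodes the regulatory subunit RIIβ of protein kinase A, which holds the catalytic subunits inactive until cAMP binds, and lies 3.12 Mb from the B6 interval (chr12:31958476-32061296, minus strand). In A6 and A8 it stood at 20.2 and 24.2 CPM, and in A2 and A4 at 46.2 and 55.3 CPM. Both B6 hearts were below both B7 hearts, a log2 difference of -1.23 (95% interval -1.54 to -0.92, adjusted p = 0.016). The B6 level was not unusual among hearts. B2 hearts ran from 15.3 to 31 CPM, B3 hearts from 26.1 to 43.9 and B5 hearts from 36.9 to 48.8, and A4 lay above all of them. The call was lost, by little, in the fit of all 20 hearts (adjusted p = 0.0502) and without A4 (0.0515). In homozygous faces Prkar2b did not separate the lines, at 82.1 and 86.3 CPM in B6 and 85.5 and 82.6 CPM in B7, and the difference between tissues passed its own test (log2 -1.26, adjusted p = 0.039).

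None of the other subunit genes was called. On the scale of TPM, which allows genes to be compared, Prkar1a was the main regulatory subunit at 151 to 261 TPM in the 4 hearts. Prkar2a was at 31.4 and 34.1 TPM in B6 and 26.8 and 21.6 TPM in B7, where Prkar2b was at 9.68, 9.74, 19 and 21.1 TPM. So in A4 the type II subunits were nearly level, while in the B6 hearts Prkar2a was more than 3 times Prkar2b. Of 28 tested genes of protein kinase A and cAMP signalling, 4 were called (14.3% beside 5.13% of all genes) and the median log2 difference was 0.19, beside -0.00021 for all genes. Prkar2b, whose small p led to this list, is 1 of the 4, so the share called was partly fixed in advance. Higher in B6 were Pkia, an inhibitor of the catalytic subunit (log2 0.51), and the anchoring proteins Akap6 (0.55) and Akap13 (0.42). The catalytic subunit genes Prkaca and Prkacb had log2 differences of 0.18 and 0.19 and did not pass. None of the 28 was called without A4 or in the fit of all 20 hearts.

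Beside the B7 deletion, 7 of 20 annotated genes could be tested and 1 was called (14.3% beside 5.13%). Fam241a lies at chr3:127869058-127896324 on the minus strand. Levels were 8.44 and 12.2 CPM in B6 and 19.4 and 29.7 CPM in B7, where the line lacks the boundary next to it. That is a 2.44-fold higher level in B7 (log2 -1.29, 95% interval -1.86 to -0.71, adjusted p = 0.036). Both B7 hearts were above, and A2 just above, the highest of the 16 other hearts, at 19.3 CPM. The call was lost without A4 (adjusted p = 0.12) and in the fit of all 20 hearts (0.27). The summed level of 19 red cell genes moved with it in these 4 hearts. Of the 16 other hearts the extremes were both homozygous B5 hearts, and the lower of them holds counts of both Xist and Y-linked genes. The heart with the lowest sum, 9115 CPM, had 5.27 CPM of Fam241a, the least of all, and the heart with the highest, 127320 CPM, had 19.3 CPM. The part of red cells in the difference was not tested. In faces the log2 difference was -0.28 (adjusted p = 0.63). Within 5 Mb of the B7 deletion 3 of 41 tested genes were called (7.32% beside 5.13%), the others being Myoz2, a calcineurin-binding protein of the Z disc (log2 0.91), and Rpl34, a ribosomal protein gene (-0.45).

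Ap1ar, a regulator of endosomal sorting 133 kb from the B7 interval, read 36.3 and 37.7 CPM in B6 and 47.9 and 45.4 CPM in B7, just short of the threshold (log2 -0.37, adjusted p = 0.056). Tifa, an adaptor of NF-kB signalling that overlaps Ap1ar on the other strand, was below 2.7 CPM in all 4 hearts (log2 -0.67, adjusted p = 0.26), and their reads may be partly shared. Larp7, Zgrf1, Alpk1 and Ank2, the ankyrin that holds ion transporters in heart cells, had log2 differences of -0.14, -0.37, 0.33 and 0.21, and none was called. Neurog2, a proneural factor, had 3 counts over the 4 hearts.

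**Figure D2:**
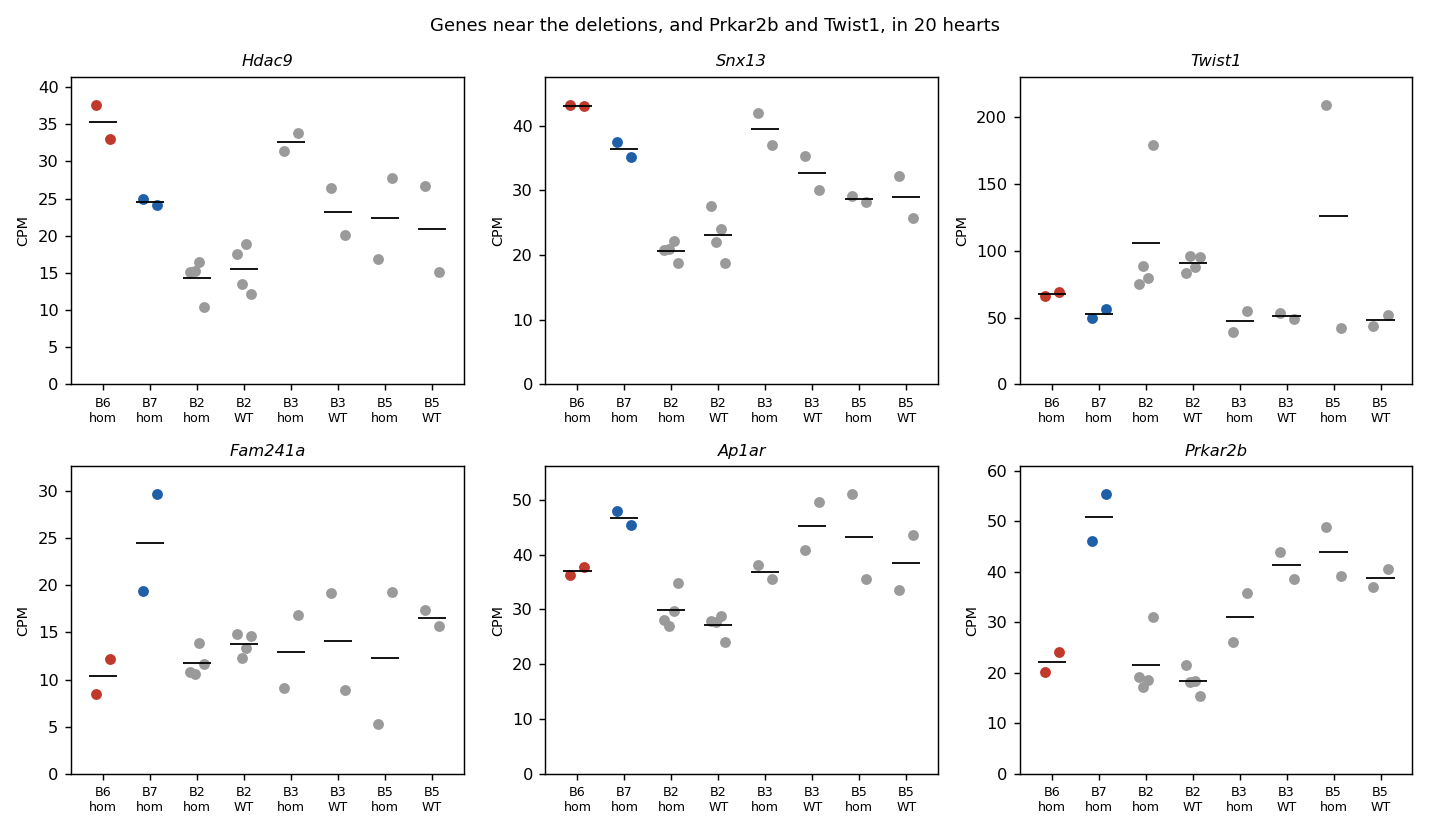
CPM (vertical axis, linear from 0) of Hdac9, Snx13, Twist1, Fam241a, Ap1ar and Prkar2b in each of 20 hearts, by line and genotype. Points are samples and black lines group means, with B6 in red, B7 in blue and other lines in grey, and for Prkar2b the B6 hearts (20.2 and 24.2 CPM) sit among the B2 hearts while B7 A4 (55.3 CPM) is above every other heart.

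Many of the largest differences were in red cell transcripts. Of 19 tested erythroid genes, 9 were lower in B6 (47.4% beside 2.76% of all genes), none was higher, and the median log2 difference was -2.15. All 19 had a negative log2 difference. Hbb-bh1, the embryonic βh1 globin, gave 500 and 1667 CPM in A6 and A8 and 8913 and 14137 CPM in A2 and A4, a log2 difference of -3.45 (SE 0.54, adjusted p = 0.027). Both B7 hearts exceeded the 16 other hearts, which ran from 400 to 8185 CPM. Klf1 and Gata1, which switch on the red cell genes, had log2 differences of -2.76 and -2.69 (adjusted p = 0.033 and 0.030). Epor, the erythropoietin receptor, and Rhag, of the Rh complex, were lower, with log2 differences of -2.29 and -2.50. In bulk tissue, fewer red cells and less RNA per red cell cannot be told apart.

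Not every globin passed. Hbb-y, the εy globin and the most abundant of them, was at 4154 and 15528 CPM in B6 and 24594 and 47075 CPM in B7 (log2 -1.91, adjusted p = 0.096). Hba-x, the ζ globin, had a log2 difference of -2.47 (adjusted p = 0.069). The adult genes Hbb-bs and Hbb-bt, whose near-identical sequences make the split of reads between them uncertain, differed by -1.08 and -1.19 and did not pass. Summed over the list, the levels were 10529 and 39515 CPM in B6 and 69268 and 129962 CPM in B7, and 9115 to 127320 CPM in the other hearts. Only A4 was above that range. Calls on this list were lost without A4 (0 of 19) and in the fit of all 20 hearts (0), and 19 were called without A8.

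The proportion of βh1 to εy globin also differed between the hearts. In primitive red cells βh1 is replaced by εy, and ζ by the α globins, as the cells mature. Hbb-bh1 counts per Hbb-y count were 0.120 and 0.107 in A6 and A8 and 0.362 and 0.300 in A2 and A4. The 16 other hearts ran from 0.0794 to 0.258, with the highest in B3 (0.142 to 0.258), so the B7 hearts were above them all and the B6 hearts close to their median of 0.114. Hba-x counts per count of Hba-a1 and Hba-a2 were 0.427 and 0.498 in B6 and 0.792 and 0.908 in B7, both within the range of the other hearts (0.408 to 0.910). Adult β globin counts per Hbb-y count were 0.0753 and 0.0782 in B6 and lower, at 0.0273 and 0.0535, in B7. These ratios were chosen after the values were seen and carry no test. With 2 hearts in each group an exact permutation test cannot give a two-sided p below 0.333.

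The same ratio was read in the faces. Hbb-bh1 counts per Hbb-y count were 0.321 and 0.320 in homozygous B7 faces and 0.0787 and 0.10 in homozygous B6 faces. In wild-type faces of B7 they were 0.120 and 0.163, and in those of B6 0.102 and 0.0953. So the 4 homozygous B7 samples, hearts and faces, held the 4 highest values among the 28 samples read, and the wild-type B7 faces lay among the other samples. The labels do not say whether these hearts and faces came from the same embryos.

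**Figure D3:**
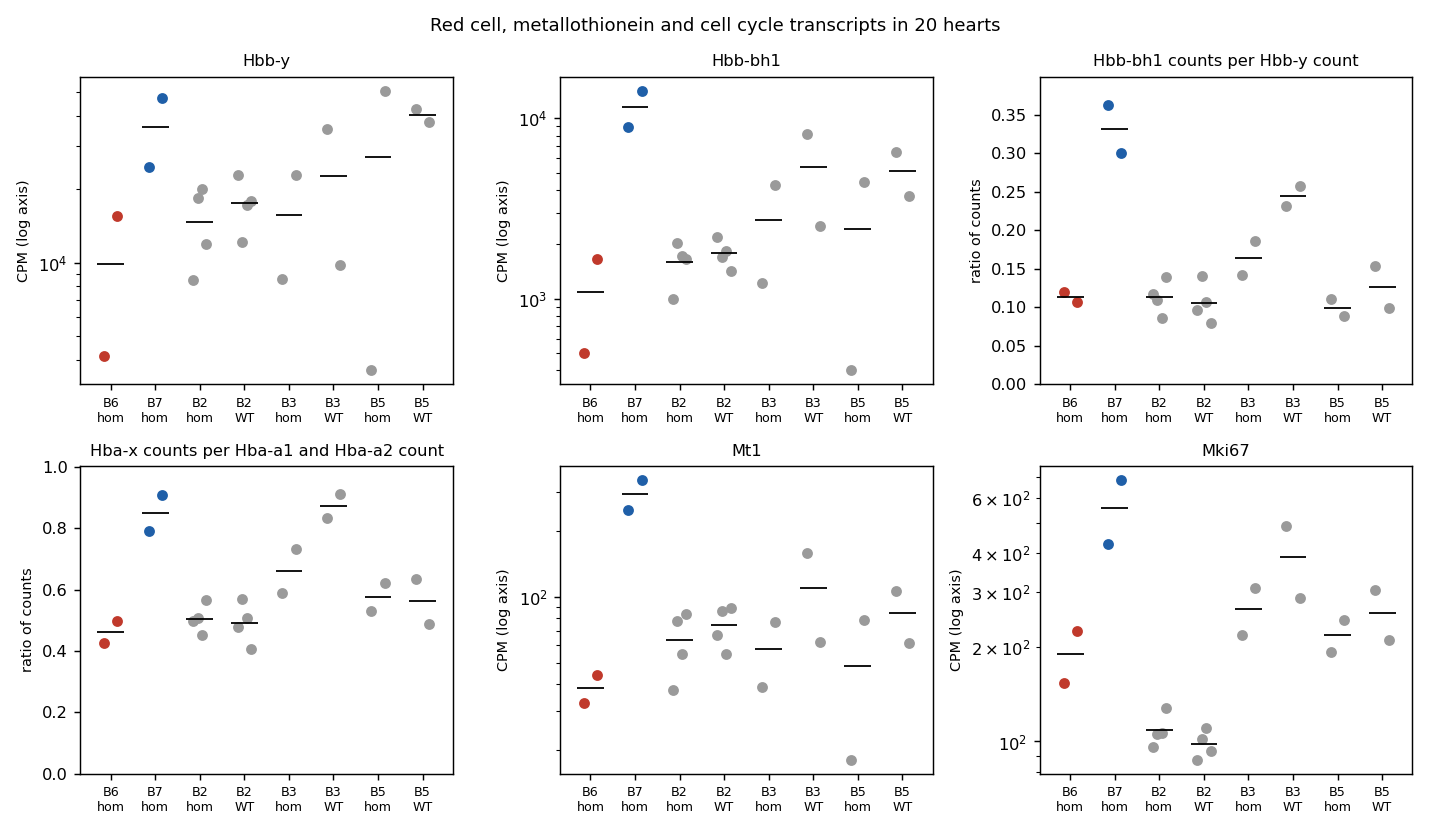
Levels of Hbb-y, Hbb-bh1, Mt1 and Mki67 in CPM (log axes) and 2 ratios of globin counts (linear axes from 0) in each of 20 hearts, by line and genotype, with group means as black lines. Both B7 hearts (blue) are above every other heart for Hbb-bh1 and Mt1. For Mki67, A4 (683 CPM) is above every other heart, and A2 (428 CPM) is below the highest heart of the other lines (488 CPM). The B7 hearts have 0.362 and 0.300 Hbb-bh1 counts per Hbb-y count, above the 0.258 of the highest other heart.

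Metallothioneins gave the smallest p-values of all genes. Mt1 and Mt2 encode small proteins that bind zinc and copper and are switched on through metal response elements. Mt2 read 14.2 and 20.7 CPM in B6 and 186 and 283 CPM in B7 (log2 -3.79, SE 0.25, adjusted p = 0.0053), and Mt1 32.7 and 43.8 CPM against 249 and 340 CPM (log2 -2.99, SE 0.19, adjusted p = 0.0053). Both stayed called with each heart left out in turn. In the other hearts Mt2 ran from 12.1 to 131 CPM and Mt1 from 18 to 158 CPM, so the B7 hearts were above and the B6 hearts within the range. The heart with 9115 CPM of erythroid transcripts had 18 CPM of Mt1 and 13.4 CPM of Mt2, and the one with 127320 CPM had 78.1 and 58.7 CPM, and the part of red cells in the difference was not tested. In the fit of all 20 hearts Mt2 was called (adjusted p = 0.048) and Mt1 was not (0.0502). These were also the only called members of the liver list, whose other 21 genes summed to 55.2 and 15.7 CPM in B6 and 11.5 and 20.7 CPM in B7. Alb, albumin, was at 0 in A8 and A2, at 0.10 CPM in A4 and at 7.20 CPM in A6. In faces Mt1 and Mt2 had log2 differences of -0.78 and -0.57 and were not called, and the difference between tissues passed for both (adjusted p = 0.036 and 0.013).

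The promoters of the pair are shown because the genes moved together and lie next to each other on chromosome 8. Each sequence is from RefSeq on GRCm38.p6, runs from 250 bases before to 30 bases after the start of the gene on the plus strand, and has matches to the core of the metal response element, TGCACNC or TGCGCNC, in capitals on either strand.
Mt1, chr8:94178839-94179118: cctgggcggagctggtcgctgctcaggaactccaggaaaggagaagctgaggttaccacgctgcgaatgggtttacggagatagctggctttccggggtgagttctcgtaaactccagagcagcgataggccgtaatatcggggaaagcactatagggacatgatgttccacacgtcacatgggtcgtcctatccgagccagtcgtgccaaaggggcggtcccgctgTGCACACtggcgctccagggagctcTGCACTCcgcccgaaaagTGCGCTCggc
Mt2, chr8:94172368-94172647: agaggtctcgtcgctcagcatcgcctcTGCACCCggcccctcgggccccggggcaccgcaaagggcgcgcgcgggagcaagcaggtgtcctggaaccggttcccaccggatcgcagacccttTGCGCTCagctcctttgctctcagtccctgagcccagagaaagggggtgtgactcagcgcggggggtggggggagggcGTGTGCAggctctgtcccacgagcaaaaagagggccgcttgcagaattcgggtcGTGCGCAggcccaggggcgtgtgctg
The window of Mt1 holds 3 matches and that of Mt2 holds 4. Of 32851 promoters of this length, 24.1% hold at least 1 match and 1.73% at least 3. A match is a run of letters and not a measured binding site.

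Of 32 tested cell cycle genes, 16 were lower in B6 (50% beside 2.76% of all genes), 16 were not called, none was called higher, and the median log2 difference was -0.41. Mki67, a marker of cycling cells, stood at 154 and 225 CPM in B6 and 428 and 683 CPM in B7 (log2 -1.59, adjusted p = 0.027). Its range in the other hearts was 87.4 to 488 CPM, and only A4 was above it. Pcna, the sliding clamp of DNA replication, read 182 and 193 CPM against 289 and 294 CPM (log2 -0.67), and Tyms, thymidylate synthase, 38.3 and 39.3 CPM against 65.6 and 78.1 CPM (log2 -0.93). The other hearts ran from 186 to 291 CPM for Pcna and from 38.7 to 74.4 CPM for Tyms, so that A6 was just below and A4 just above both ranges. These 3 genes were also called in the fit of all 20 hearts, with adjusted p of 0.042, 0.039 and 0.042. Tyms alone of the list was called without A4, and 3 of the list were called without A6. Ccnd1 and Ccnd2, the D-type cyclins of the list, had log2 differences of 0.19 and 0.14 and did not pass. Primitive red cells divide in the circulation at this age, and the summed erythroid level moved in the same direction, as given above. Its part in the cell cycle values was not tested. In the heart with 9115 CPM of erythroid transcripts Mki67 was at 193 CPM and Tyms at 68.0 CPM, and in the one with 127320 CPM they were at 245 and 45.1 CPM.

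Shox2, a homeobox factor that keeps the sinoatrial node in its pacemaker state, gave the largest difference among genes of the heart's own compartments. The levels were 4.89 and 2.97 CPM in B6 and 23.4 and 43.8 CPM in B7, a log2 difference of -3.12 (SE 0.35, adjusted p = 0.016), which was called with each heart left out in turn. Among the 16 other hearts Shox2 ran from 0.79 to 45.1 CPM, and the fit of all 20 hearts did not call it (adjusted p = 0.39). Low values were found in 1 wild-type and 2 homozygous B2 hearts and in 1 homozygous B5 heart, at 0.79 to 4.91 CPM. Of 13 tested genes of the sinoatrial node and atrioventricular canal, 3 were lower in B6 (23.1% beside 2.76%) and the median log2 difference was -0.29. The others called were Vsnl1, a calcium sensor (14.7 and 7.91 CPM against 26.7 and 38.6 CPM, log2 -1.56), and Hcn4, the pacemaker channel (30.3 and 28.6 CPM against 42.5 and 59.6 CPM, log2 -0.83). For Hcn4 the other hearts ran from 4.10 to 56.1 CPM with a median of 15.2. Both B6 hearts were above that median and above all B2 and B5 hearts, but below all B3 hearts (30.66 to 56.1 CPM). A4 was above every other heart. Tbx18, Tbx3 and Isl1, further factors of the venous pole, had log2 differences of 0.09, -0.29 and -0.47 and did not pass. Wnt2, a ligand of the venous pole and lung, was at 6.31 and 4.65 CPM in B6 and 16.2 and 16.7 CPM in B7 (log2 -1.62, adjusted p = 0.016). In faces Shox2 was at 32.4 to 38.1 CPM in all 4 homozygous samples, and the difference between tissues was called (log2 -3.11, adjusted p = 0.039). How much venous tissue each dissection kept was not tested.

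Extracellular matrix genes were among those called higher in B6. Of 30 tested extracellular matrix genes, 8 were higher in B6 (26.7% beside 2.37%), none was lower, and the median log2 difference was 0.37. Elastic fibre genes led. Fbln5, fibulin 5, was at 57.5 and 28.7 CPM in B6 and 5.70 and 9.59 CPM in B7 (log2 2.47), and Eln, elastin, at 243 and 149 CPM against 63.1 and 86.7 CPM (log2 1.35). Lox, which cross-links elastin and collagen, read 33.5 and 34.1 CPM against 9.83 and 14 CPM (log2 1.47, adjusted p = 0.017). The other hearts ran from 6.34 to 51.8 CPM for Fbln5, from 21.6 to 187 CPM for Eln and from 10.5 to 54.0 CPM for Lox. Only A6 was above the ranges of Fbln5 and Eln, and only A2 was below those of Fbln5 and Lox. Both B6 hearts were within the range of Lox. The collagens Col3a1, Col5a2 and Col9a1 were higher by 0.53, 0.52 and 0.80, while Col1a1 and Col1a2, at 0.28 and 0.26, did not pass. Lum, the proteoglycan lumican of cushion and valve mesenchyme, stood at 42.9 and 34.4 CPM in B6 and 7.74 and 10.9 CPM in B7 (log2 2.02, SE 0.19), with both B7 hearts below the lowest other heart at 11.6 CPM. It was called without each heart in turn and in the fit of all 20 hearts (adjusted p = 0.044). Postn, periostin, was at 297 and 303 CPM in B6, above the highest other heart at 218 CPM, and at 173 and 159 CPM in B7 (log2 0.81, adjusted p = 0.016). Of 18 genes of cushion and valve mesenchyme, 3 were called, all higher (16.7% beside 2.37%). The other 15 were not called, and 6 of the 18 had a negative log2 difference. Without A4, Lox alone of the matrix list was called, and in the fit of all 20 hearts none.

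Some genes of muscle and conduction were called, in both directions. The gap junction genes Gja1 and Gja5 encode connexin 43 and connexin 40. Gja1 read 331 and 376 CPM in B6 and 210 and 184 CPM in B7 (log2 0.81, adjusted p = 0.022), with both B6 hearts above the highest other heart at 315 CPM. Gja5 read 221 and 182 CPM against 139 and 134 CPM (log2 0.52). Pln, phospholamban, which holds back the calcium pump SERCA, was at 583 and 530 CPM in B6 and 346 and 278 CPM in B7 (log2 0.80). Of 26 genes of calcium handling and ion channels, 6 were called (23.1%), 4 as higher and Hcn4 and Kcna5 as lower. The shares called of these lists stand beside 5.13% of all genes, 2.37% higher and 2.76% lower. Among 16 genes of fatty acid oxidation 5 were higher (31.2%, median log2 0.34), with Cd36 and Fabp3, which take up and carry fatty acids, at log2 0.55 and 0.52. Bmp10, a growth factor of trabecular muscle, was at 40.7 and 49.5 CPM in B6 and 31.6 and 26.9 CPM in B7 (log2 0.58), and 3 of 10 trabecular genes were higher (30%). Of 28 sarcomere genes, 2 were called higher, or 7.14% (Tnnt1 and Tcap, log2 0.55 and 0.43). The median log2 difference of the 28 was 0.20, with 24 positive and 4 negative. None of 18 cardiac transcription factors and none of 28 genes of glycolysis and hypoxia was called. Calls of these muscle lists were lost without A4.

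**Figure D4:**
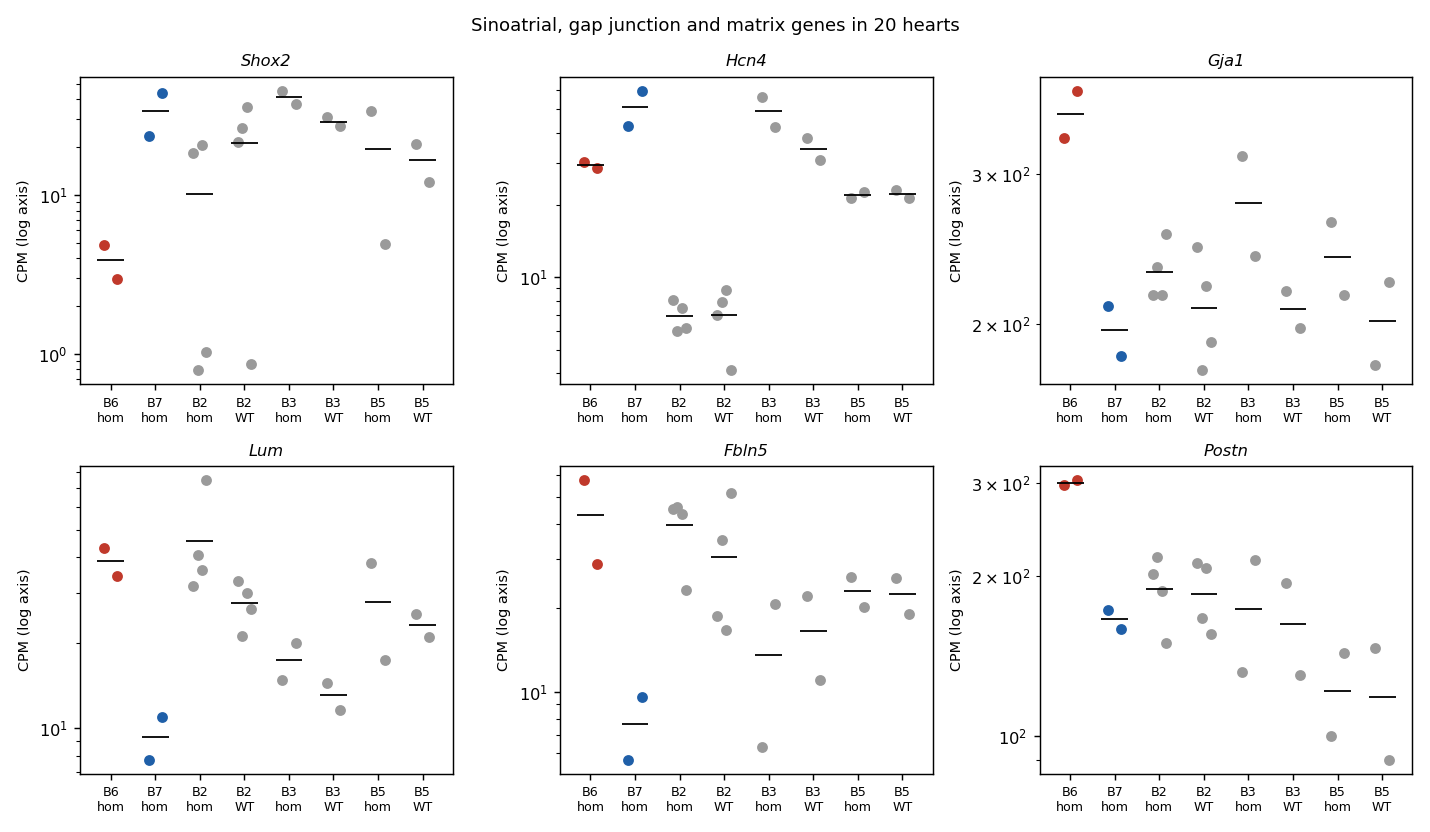
CPM (log axes) of Shox2, Hcn4, Gja1, Lum, Fbln5 and Postn in each of 20 hearts by line and genotype, with B6 in red, B7 in blue, other lines in grey and group means as black lines. Both B6 hearts are low for Shox2 (4.89 and 2.97 CPM), as are 4 grey points, and above every other heart for Gja1 and Postn.

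Further large differences were spread over other functions. Higher in B6 were Nptx1, a neuronal pentraxin (log2 2.09), Dpt, dermatopontin (2.28), Mstn, myostatin, a brake on muscle growth (1.69), Msln, a mesothelial marker (1.68), and Adamts8, a secreted protease (1.6). Nptx1 and Mstn were also called in the fit of all 20 hearts. Hspa1a, an inducible heat shock gene, was at 4.13 and 3.02 CPM in B6 and 0.76 and 1.07 CPM in B7, and its near-identical copy Hspa1b was called as well, so that the share of each is uncertain. Lower in B6 were Pklr, the pyruvate kinase of red cells and liver (log2 -3.48), Hemgn, a blood cell nuclear protein (-3.48), and Tfr2, transferrin receptor 2 (-2.99). Of 18 genes of macrophages and other blood cells, Lyz2 was called higher, and Pf4 and Itga2b, genes of platelets and their precursors, lower (log2 -1.31 and -1.25). The share called was 16.7%, beside 5.13% of all genes. The median log2 difference of the 18 was 0.50, with 15 positive and 3 negative. Ptprc, the general white cell marker, was at 0.31 to 1.24 CPM in the 4 hearts. Hox genes were not called (0 of 7 tested).

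**Figure D5:**
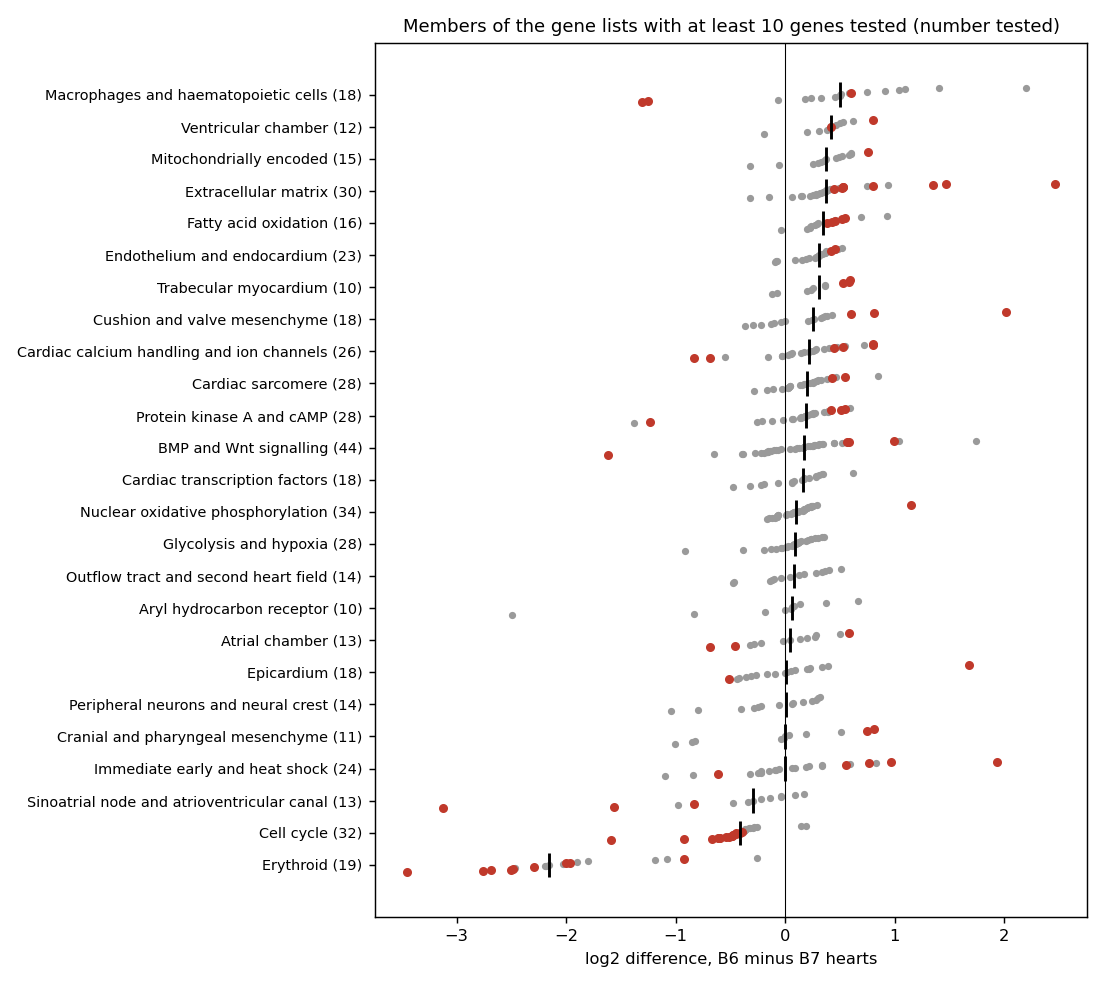
Log2 difference between B6 and B7 hearts (horizontal axis) for each tested member of the gene lists with at least 10 tested genes, one list per line with the number tested in brackets. Red points were called, grey points were not and black bars are list medians, which run from -2.15 for erythroid genes to 0.50 for macrophages and haematopoietic cells.

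Faces give the same lines a second reading with wild-type samples beside them. Between homozygous faces 90 of 15663 genes were called (0.575%), 51 higher and 39 lower in B6. The number fell to 5 without A1 and to 10 without A7. Between wild-type faces of the lines edgeR called 0 (0%), with 1031 at an unadjusted p under 0.05, and DESeq2 called 19. The difference between the lines changed with tissue in 15 genes (0.0941% of 15937 tested), Mt1, Mt2, Shox2, Prkar2b and Tbx20 among them. It changed with genotype in 2 genes (0.0128%), Vtn and Nkx6-1. Of the 746 heart calls, 11 were also called in faces, which is 1.47% of the heart calls and 12.2% of the 90 face calls, of which 60 were tested in hearts, and 10 of the 11 had the same direction. These genes were picked by being called in both tissues, after their values were seen. Hey2, a ventricular and neural factor, Txnip, a brake on glucose uptake, and Aspn, asporin, were among the higher, and Hbb-bh1, Hemgn, Pklr and Lin28a among the lower. Ntn1, netrin 1, went opposite ways, with log2 differences of 0.62 in heart and -0.95 in face.

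Txnip is an example of a difference found at both sites. It was at 164 and 106 CPM in B6 hearts and 61.5 and 55.2 CPM in B7 hearts, and at 72.5 and 55.4 CPM in B6 faces and 28.1 and 22.9 CPM in B7 faces. Wild-type faces held 65.3 and 68.1 CPM in B6, within the homozygous B6 values, and 43.3 and 38.8 CPM in B7, above the homozygous B7 values. Lin28a, an RNA-binding protein that is high in early embryos and declines with age, was low in hearts, at 0.49 and 0.30 CPM in B6 and 2.14 and 1.63 CPM in B7. In homozygous faces it read 3.41 and 3.72 CPM in B6 and 19.3 and 9.69 CPM in B7, and in wild-type faces 2.58 and 2.41 CPM against 5.54 and 6.97 CPM. Gm21887, a predicted gene chosen after its values were seen, was at 3.91 and 3.21 CPM in B6 hearts and 17.9 and 21.8 CPM in B7 hearts, where the other hearts ran from 9.78 to 41.8 CPM. Its B6 faces, homozygous and wild-type, held 3.32 to 6.97 CPM and its B7 faces 11 to 23.4 CPM, and the wild-type faces of the lines did not overlap. In faces none of the tested genes beside the deletions was called, with log2 differences of 0.28 for Hdac9 and -0.28 for Fam241a.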

How the data were processed

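RNA-seq of E11.5 hearts and faces was read from 1 table of genes per sample. By the study's methods, the authors sequenced 150 bp paired ends, ran a pipeline named in its single-end form, mapped reads to mm10 with STAR 2.12 and counted GENCODE M4 genes with RSEM 1.4.1. The sources used here give neither the library kit nor the strand setting. The authors deposited expected counts, which are estimated counts that need not be whole and were rounded here, and TPM, which the authors scaled to gene length and depth and which were used only for levels between genes. Of 43346 genes, 42462 were given names from GENCODE M21.

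Hearts A6 and A8 (B6) were compared with A2 and A4 (B7) in R 4.3.3 with edgeR 4.0.16. Genes were kept by filterByExpr (minimum count 10), libraries were scaled by TMM, and the quasi-likelihood test was adjusted by the Benjamini-Hochberg method, with genes called under 0.05. Differences are B6 minus B7 and levels are CPM. The 8 faces were fitted together, and the difference between tissues in 1 model of hearts and homozygous faces. That model treats hearts and faces as independent, though some may come from the same embryo. Hearts held 18.8 M to 24.3 M counts and faces 18 M to 24.6 M, which limits genes of few counts most. The script was tested on simulated data.

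Genes are named if the study names them for these lines or they lie within 1 Mb of a deletion and were tested, if they ranked among the first 10 called genes per direction by size of change or by p (mean CPM of at least 1), if they were up to 4 called members of a list by largest change, or as checks of sex and tissue, with the pathway list of the gene near a deletion with the smallest p. Other list members were named after their values were seen. The members and the 32 lists were chosen with earlier results of these data known. Alternatives were DESeq2 1.42.0, RLE and upper quartile scaling, no filter, robust spread, the likelihood-ratio test, all 20 hearts, wider windows, and each library left out. Guides were matched to GRCm38, and promoters are RefSeq's. Some items withheld for evaluation are not reported here.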

Additional observations from a re-analysis of the deposited data

Results flagged for a closer look

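The B6 minus B7 difference was not the same in heart and in homozygous face for 15 genes (0.0941% of 15937 tested), by edgeR's test of the difference between tissues. Of these, Mt2 had the most negative difference between tissues. The differences between tissues were -3.24 for Mt2 and -2.23 for Mt1 on the log2 scale, with 14.2 and 20.7 CPM against 186 and 283 CPM of Mt2 in hearts and 21.2 and 18.3 CPM against 34.7 and 24.1 CPM in faces. Shox2 (-3.11), Ripor3 (-2.72), Adcy7 (-2.68), Chst10 (-1.80) and Prkar2b (-1.26) were likewise lower in B6 hearts and not called in faces. Hey2 (-1.21) was higher in B6 in both tissues, and more so in faces.

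Tbx20, a T-box factor of heart muscle, gave the largest value in the other direction, at 3.41 (adjusted p = 0.00046). It was at 430 and 468 CPM in B6 hearts and 392.1 and 358 CPM in B7 hearts. Homozygous faces held 0.96 and 0.66 CPM in B6 and 7.54 and 7.50 CPM in B7, and all 4 wild-type faces were at 0.57 to 0.91 CPM. Cd36 (1.68), Ntn1 (1.54), Snap91 (1.48), Spon1 (1.45), Eno3 (1.25) and Pkp2 (1.12) followed, with higher face values in homozygous B7 than in homozygous B6. In those faces Tnnt2, cardiac troponin T, was at 0.67 and 3.13 CPM in B7 and 2.35 and 2.70 CPM in B6, and Actc1, cardiac actin, at 7.49 and 39.1 CPM in B7 and 41.7 and 35.9 CPM in B6, so that neither was higher in both B7 faces. Of 18 Hox genes tested in homozygous faces, 2 were called lower in B6 and 0 higher, beside 90 called of all 15663 genes. Their median log2 difference was -3.94. What tissue each face dissection held was not tested.

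In faces the difference between the lines also depended on genotype for Nkx6-1 (-5.35, adjusted p = 0.042) and Vtn (-2.69, adjusted p = 0.025). Nkx6-1, a neural homeobox factor, was at 0.91 and 0.93 CPM in homozygous B6 faces and 18.7 and 9.47 CPM in homozygous B7 faces, and at 4.05, 5.09, 2.28 and 1.18 CPM in wild-type faces.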

How the results depend on the processing

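The counts of called genes depended on the error model and on single hearts. None of the 76 called named genes reversed, which was nearly fixed because their groups did not overlap. Genes higher in B6 hearts numbered 345, and 551 with DESeq2, 1126 without a filter, 587 with robust spread, 658 with the likelihood-ratio test and 12 with all 20 hearts. Genes lower in B6 numbered 401, and 633, 1222, 783 and 35 with DESeq2, no filter, the likelihood-ratio test and all 20 hearts. With each heart left out they ran from 16 to 371 and from 19 to 623, lowest without A4. Beside B6 the count of 1 became 0 with all 20 hearts and 5 within 5 Mb, and ran from 0 to 1 with hearts left out. Beside B7 the count of 1 became 2 with DESeq2, no filter or the likelihood-ratio test, 0 with all 20 hearts and 3 within 5 Mb, and ran from 0 to 1. Homozygous faces gave 90, and 367 with DESeq2, 852 without a filter, 58 in a fit of those 4 faces and 5 to 120 with a face left out. Wild-type faces gave 0, and 19, 292 and 0 to 3. The difference between tissues gave 15, and 216, 771 and 1 to 86, and that between genotypes 2, and 46, 249 and 0 to 8. Of 95 named genes tested, 76 were called, 8 with all 20 hearts and 14 to 64 with a heart left out. The log2 difference of 4 named genes that were not called changed sign. For Bzw2 it was 0.004 without a filter, 0.017 with upper quartile scaling, 0.038 with all 20 hearts and -0.072 to 0.067 with a heart left out, and for Myh6 0.011 with all 20 hearts and -0.098 to 0.040 with a heart left out. With a heart left out, Alpk1 ran from -0.125 to 0.991 and Ankmy2 from -0.007 to 0.080. The cause was not tested. DESeq2 gave no adjusted p for 1973 genes. No paired analysis was run, because the labels do not say which libraries share an embryo or a litter.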
